A study of Mus musculus with 39 samples.

Results

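The RNA of the middle zone of a sucrose gradient, fractions 10 to 13, was compared with that of the light zone, fractions 4 to 7, in mouse liver. These were 16 of the 39 sequenced fractions, 4 fractions per zone in each of 2 gradients. The zones are set by fraction number alone, but the comparison was chosen with earlier results of these data known. Within each gradient, log2(TPM + 1) was averaged over the 4 fractions of a zone, so that the gradients are the replicates (n = 2) and fractions of a gradient are not. TPM is the length-corrected share of a library that a gene takes, scaled to the same total in every library. Genes were tested if they were in the tables of both gradients and had a mean TPM of at least 1 over the 16 libraries, which was met by 12002 of 13230 shared genes (14386 genes were in either table).

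Both gradients were loaded with homogenate of liver from wild-type female mice of the FVB strain, whose age is not given in the sources used here. No animal was treated, and all libraries have the same genotype, so the zones differ only in where the RNA sedimented. The tissue was broken with beads in buffered sucrose that held a ribonuclease inhibitor and no detergent, nuclei were spun out, and the remainder was layered on a gradient of 10 to 50% sucrose. Fraction 4 of gradient 1 is labelled as the least dense fraction of that gradient, and numbers rise with density.

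In such a gradient small particles stay near the top and larger or denser ones travel further. Because membranes were not dissolved, an mRNA travels with whatever it is bound to: single ribosomes, polysomes, vesicles of endoplasmic reticulum that carry ribosomes, mitochondria, or protein complexes. Proteins that are secreted or inserted into membranes are mostly made on the endoplasmic reticulum, to which the ribosome is brought by a hydrophobic stretch that emerges early from it. Hepatocytes make most plasma proteins, metabolise drugs with enzymes of the endoplasmic reticulum, and are rich in mitochondria and peroxisomes.

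The libraries of the light zone held 11770 to 12558 genes above 1 TPM (median 12133.5), and those of the middle zone 10867 to 11633 (median 11250). The 50 most abundant genes took 29.9 to 50.9% of the light libraries and 27.4 to 32.2% of the middle ones. The library of fraction 4 of gradient 1 stood apart, since Rpph1, the RNA of ribonuclease P, made up 249286 TPM of it. Without this library 5571 genes passed the test, in place of 6201. TPM keeps no read numbers, so the depth of each library is unknown, and a gene that takes a larger share lowers the shares of all others in that library.

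The zones differed in 6201 genes at an adjusted p under 0.05, 51.7% of those tested. Of these, 2983 genes were higher in the middle zone (24.9% of those tested) and 3218 were lower (26.8%), and 7049 genes had an unadjusted p under 0.05. All 6201 had the same sign in both gradients, which are the replicates of the test, so passing it favours such genes. With the gradient as a block, 9076 genes passed, of which 4547 were higher. Without the light zone of gradient 1 the count was 3467, and without that of gradient 2 it was 3650. With 2 gradients, an exact permutation test of a single gene cannot give a two-sided p below 0.333, so all calls rest on the limma fit, which shares the spread across genes.

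The quartiles of all differences lay at -0.80 and 0.74 (log2 scale, middle minus light), around a median of 0.02, and the median standard error was 0.22. Among genes that passed, 2092 were higher by more than 1 and 404 by more than 2, whereas 2263 were lower by more than 1 and 434 by more than 2. In 2070 genes all 8 middle libraries lay above all 8 light ones (17.2%), and in 1964 genes all lay below (16.4%). The differences of the 2 gradients correlated across genes with r = 0.948 (Spearman's rho 0.958). This is a description over 12002 genes, which are not independent, and libraries of a gradient share their homogenate. The median gap between the 2 gradients' differences was 0.183, and 93.1% of all genes had the same sign in both.

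**Figure D1:**
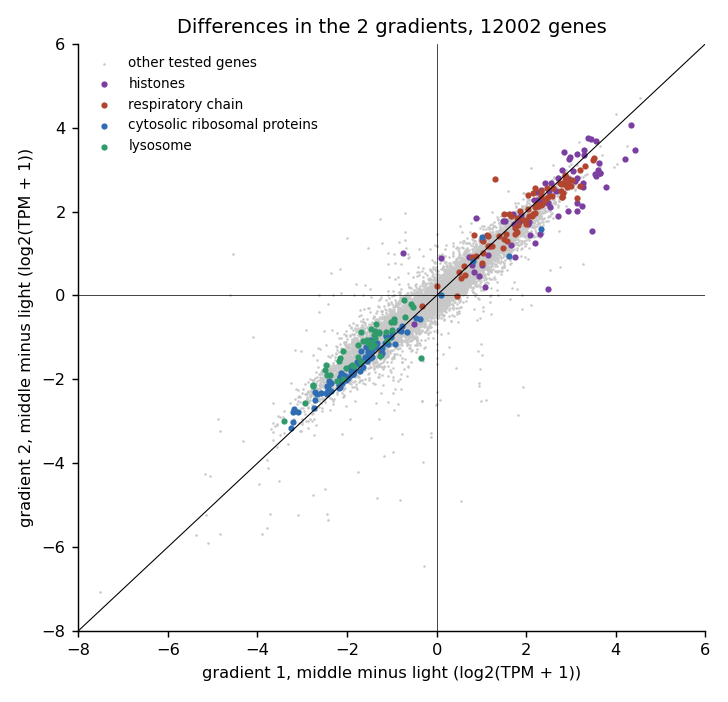
Difference between middle and light zone (log2(TPM + 1)) of each of 12002 genes in gradient 1 (x axis) and gradient 2 (y axis), with the members of 4 gene lists in color and the line of equal difference. Most histone and respiratory chain genes lie at the upper right and most cytosolic ribosomal protein and lysosomal genes at the lower left, in both gradients.

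Over all genes tested, 24.9% were higher in the middle zone and 26.8% lower, and list counts are to be read against these shares. Zones did not overlap in 17.2% (higher) and 16.4% (lower) of all genes. Most mRNAs of secreted and membrane proteins on the lists described here were lower in the middle zone than in the light zone. Most of those of mitochondria, the proteasome, cytosolic metabolism and histones were higher. The coding starts of 10 mRNAs are shown for this contrast, 90 bases from the start codon in each (GENCODE transcripts, build GRCm38), with the 8 codons of highest mean hydropathy among the first 30 codons in capitals. The first 4 encode proteins that enter the endoplasmic reticulum by their start. Slc38a4 encodes a carrier with many membrane stretches but none at its start. Fabp1, Psmb1 and Eef1a1 encode soluble proteins. Sec61b is anchored by its tail and Ndufa4 is a subunit of the mitochondrial respiratory chain.
Alb (chr5:90460897-90476602, + strand): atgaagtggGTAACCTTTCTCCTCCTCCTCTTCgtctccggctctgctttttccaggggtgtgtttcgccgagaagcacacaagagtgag
P4hb (chr11:120560298-120573253, - strand): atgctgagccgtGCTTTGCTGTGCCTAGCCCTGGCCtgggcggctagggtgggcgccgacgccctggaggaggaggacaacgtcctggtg
Lamp1 (chr8:13159161-13175338, + strand): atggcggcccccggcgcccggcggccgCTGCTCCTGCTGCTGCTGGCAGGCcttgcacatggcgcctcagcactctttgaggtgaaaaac
Cyp2e1 (chr7:140763739-140774987, + strand): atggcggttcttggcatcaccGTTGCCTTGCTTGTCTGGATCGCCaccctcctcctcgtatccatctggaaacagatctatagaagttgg
Slc38a4 (chr15:96994820-97055956, - strand): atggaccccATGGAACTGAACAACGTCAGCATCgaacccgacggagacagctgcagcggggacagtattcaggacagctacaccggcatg
Fabp1 (chr6:71199827-71205023, + strand): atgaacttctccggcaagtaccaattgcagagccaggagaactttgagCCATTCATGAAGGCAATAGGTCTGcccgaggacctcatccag
Psmb1 (chr17:15475021-15499751, - strand): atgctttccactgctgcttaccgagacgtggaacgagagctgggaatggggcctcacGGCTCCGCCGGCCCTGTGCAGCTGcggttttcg
Eef1a1 (chr9:78478449-78489151, - strand): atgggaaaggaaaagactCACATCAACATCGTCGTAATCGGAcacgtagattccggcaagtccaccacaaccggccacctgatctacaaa
Sec61b (chr4:47474658-47483242, + strand): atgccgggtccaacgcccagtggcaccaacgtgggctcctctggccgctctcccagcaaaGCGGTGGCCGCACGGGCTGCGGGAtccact
Ndufa4 (chr6:11900292-11907497, - strand): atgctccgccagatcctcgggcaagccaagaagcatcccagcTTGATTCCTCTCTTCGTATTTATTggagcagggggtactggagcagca

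The coordinates are those of the whole gene, of which the coding start is a spliced part. On the Kyte-Doolittle scale, the window in capitals averaged 3.04 in Alb, 2.89 in P4hb, 3.02 in Lamp1, 2.90 in Cyp2e1 and 3.10 in Ndufa4. It averaged 0.39 in Slc38a4, 1.11 in Fabp1, 0.39 in Psmb1, 1.85 in Eef1a1 and 1.04 in Sec61b. A window of 2.5 or more is called a hydrophobic start here.

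Of 99 measured genes of plasma proteins, which hepatocytes secrete, 64 were lower in the middle zone, 1 was higher and 34 did not pass, with a median difference of -1.31 against 0.02 over all genes tested. In 55 of them all middle libraries lay below all light ones. Alb, which encodes albumin, the main protein of plasma, was at 10600 to 41230 TPM in the light libraries (median 24760) and at 2562 to 5709 in the middle ones (median 3594). Its 2 zones did not overlap, and within the light zone its share fell with density in both gradients, from 41230 to 16700 TPM in gradient 1 and from 25390 to 10600 in gradient 2. The difference was -2.68 ± 0.38 (SE, n = 2, adjusted p = 0.00485), and -2.31 without the light zone of gradient 1 (adjusted p = 0.0513). Fn1, encoding fibronectin, was at 174 to 327 TPM in the light and 42.4 to 86.5 in the middle libraries, a difference of -1.95 ± 0.19 (adjusted p = 0.00232).

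Apob, the structural protein of lipoproteins, was at 806 to 1878 and 92.6 to 243 TPM, a difference of -3.17. Small apolipoproteins had other values. Apoc1, the most abundant plasma protein mRNA after Alb over these libraries, had overlapping zones at 6072 to 16980 and 7485 to 29230 TPM and a difference of 0.92 ± 0.39 (adjusted p = 0.103, and 0.0271 with the gradient as a block). Apoc4 was the member that was higher, by 1.39, at 525 to 2243 and 1345 to 4302 TPM. Apob and Apoc4 were chosen after their values were seen. With the gradient as a block, 5 plasma protein genes were higher. Of 21 major urinary proteins, a secreted family of liver that is in part on this list and whose near-identical genes can split reads, 0 were lower and 2 were higher. The median difference of this family was -0.77. Its summed level was 8965 to 60540 TPM in the light and 4162 to 39750 in the middle libraries, which overlapped, and the difference of the sums was -1.14 in gradient 1 and -0.40 in gradient 2 (log2 scale).

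Genes of folding and quality control in the endoplasmic reticulum were lower in 38 of 47 cases and higher in 0, with a median of -1.52. P4hb, protein disulfide isomerase, was at 337 to 649 TPM in the light and 48.7 to 137 in the middle libraries, with no overlap and a difference of -2.68 ± 0.28 (adjusted p = 0.00254). Herpud1, a small membrane protein of degradation, was at 152 to 363 and 269 to 594 TPM, which overlapped, with a difference of 0.83 ± 0.40 (adjusted p = 0.139, and 0.000918 with the block). With the block, 2 genes of this list were higher.

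Of 40 genes of the translocon, the signal recognition particle and oligosaccharyltransferase, which bring ribosomes to the endoplasmic reticulum and modify the new protein, 21 were lower (52.5%, against 26.8% of all genes) and 9 were higher (22.5%, against 24.9%), around a median of -0.94. The summed level of this list was 2421 to 3028 TPM in the light and 1640 to 3653 in the middle libraries, which overlapped. Sec61a1, the channel with many membrane stretches, was at 70.7 to 167 TPM in the light and 12.1 to 38.2 in the middle libraries (difference -2.27). Its partners Sec61b and Sec61g, which are short and anchored by the tail, went the other way. Sec61b was at 67.4 to 260 and 380 to 964 TPM, without overlap, and was higher by 2.46 ± 0.21 (adjusted p = 0.00197). Sec61g was higher by 1.58, and Srp14 and Srp68, subunits of the signal recognition particle that are soluble, were higher by 1.61 and 1.10. Dad1, Spcs1, Tmem258, Srp54b and Srp54c were the others that were higher, and Srp54b and Srp54c are near-identical copies between which reads may be split. Ost4, the smallest subunit of oligosaccharyltransferase, had a difference of -0.24 ± 0.18 (adjusted p = 0.304) at 183 to 518 and 107 to 491 TPM. Sec61a1 and the members named without a standard error were chosen after their values were seen.

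Cytochromes P450, the membrane-bound oxidases of drug and steroid metabolism, were lower in 29 of 56 genes and higher in 0, with a median of -1.13. With the gradient as a block 52 were lower, and with the dense zone added to the fit 19 were. Cyp2e1, an ethanol-metabolising P450, was at 3023 to 5394 TPM in the light and 427 to 1370 in the middle libraries, with no overlap and a difference of -2.47 ± 0.39 (adjusted p = 0.00605). Cyp3a11 was at 297 to 1378 and 126 to 753 TPM, a difference of -0.93 ± 0.65 (adjusted p = 0.274, and 0.0038 with the block). P450 genes are closely related, so reads may be split between copies. Of 25 UDP-glucuronosyltransferases and carboxylesterases, which conjugate or hydrolyse drugs in the same membrane, 16 were lower and 0 higher (median -1.18), but 4 were lower with the dense zone in the fit. Ugt2b34 was lower by 2.80 ± 0.34 on the log2 scale (103 to 324 against 14.6 to 50.7 TPM, adjusted p = 0.00322), and Ces1c had a difference of -1.40 ± 0.38 (295 to 521 against 78.5 to 302 TPM, adjusted p = 0.0304).

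Lysosomal genes were lower in 39 of 45 cases and higher in 0, with a median of -1.33, and their summed level was 1136 to 2275 TPM in the light libraries and 280 to 694 in the middle ones. Lamp1, a glycoprotein of the lysosomal membrane, was at 193 to 336 TPM in the light and 36.0 to 99.8 in the middle zone, a difference of -2.17 ± 0.29 (adjusted p = 0.00409). Lamp2, its relative, was at 83.8 to 282 and 26.9 to 104 TPM, which overlapped, with a difference of -1.36 ± 0.20 (adjusted p = 0.00533, and 0.0645 with the dense zone in the fit). Of 142 solute carriers of the plasma membrane and vesicles 120 were lower and 0 higher, with a median of -1.32. Slc38a4, an amino acid transporter, was at 248 to 755 and 89.3 to 252 TPM and differed by -1.43 ± 0.31 (adjusted p = 0.0156). Its relative Slc38a3 was at 309 to 720 and 225 to 530 TPM, a difference of -0.41 ± 0.36 (adjusted p = 0.384, and 0.0241 with the block). Of 17 matrix genes 13 were lower and 1 was higher (median -0.76). Bgn, the proteoglycan biglycan, was at 42.0 to 116 and 6.09 to 14.9 TPM and differed by -2.86 ± 0.20 (adjusted p = 0.00197), and Col18a1 by -0.76 ± 0.17 (adjusted p = 0.0154).

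**Figure D2:**
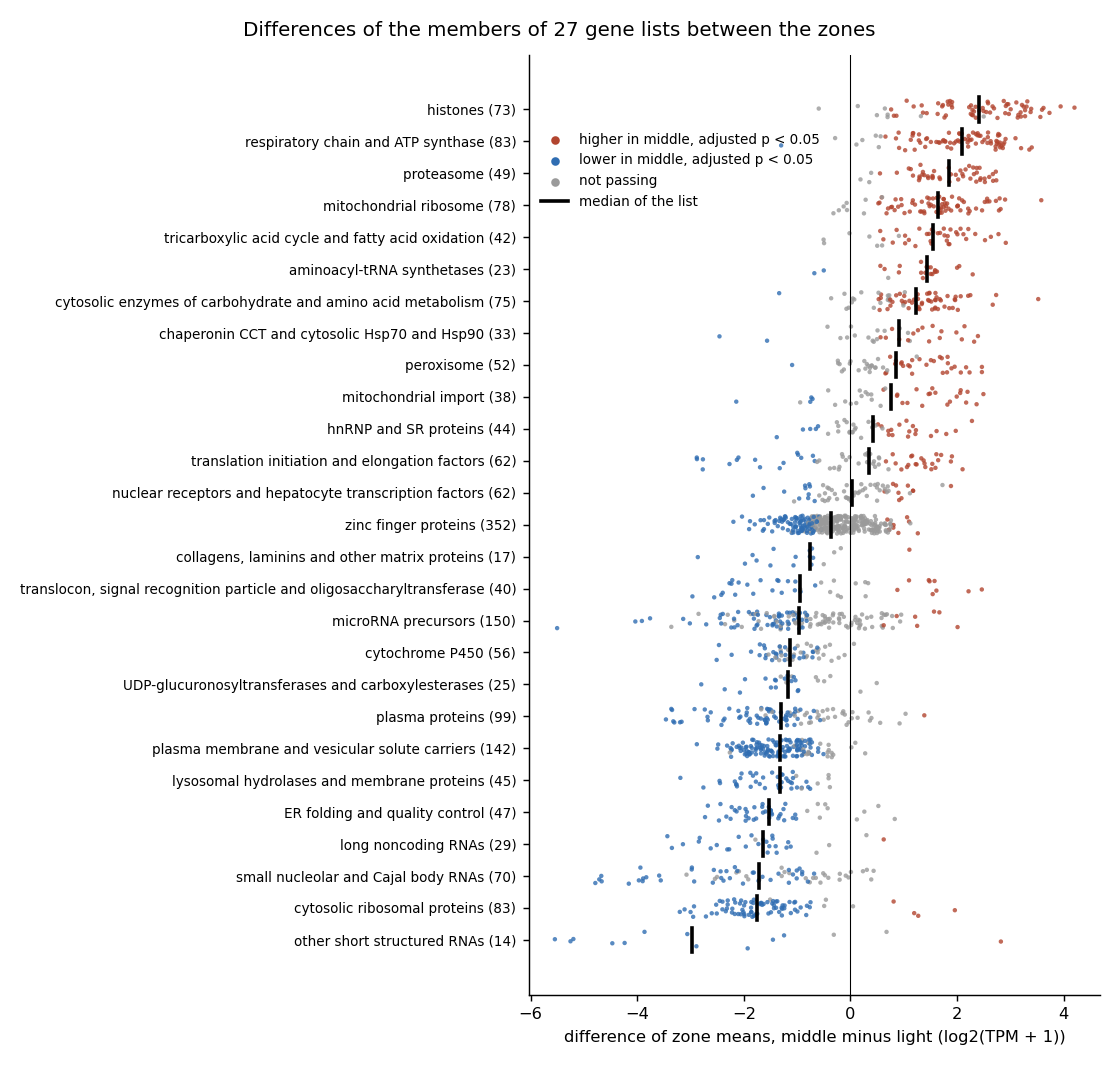
Difference between the zones (log2(TPM + 1), middle minus light) of every tested member of 27 gene lists, 1 point per gene, with the number tested in brackets. Bars mark list medians, which run from -2.98 in other short structured RNAs to 2.42 in histones, and colors mark genes past an adjusted p of 0.05.

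The hydrophobic start followed the same division over all genes. Of 1484 protein-coding genes with such a start, 955 were lower in the middle zone (64.4%) and 86 were higher (5.80%), with a median of -1.07. Of 9475 genes without one, 1834 were lower (19.4%) and 2779 higher (29.3%), with a median of 0.21. Both gradients gave this order, with medians of -1.22 and -0.92 with the start and 0.23 and 0.19 without it. Seen from the calls, 34.2% of the lower genes, 3.00% of the higher genes and 8.35% of those that did not pass had a hydrophobic start, against 13.5% of all protein-coding genes. Of the 86 exceptions, 8 were in the 4 mitochondrial lists, Ndufa4 among them, and these lists had 9 members with such a start in all.

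Stretches further into the protein were counted as windows of 19 residues with a mean hydropathy of at least 1.6. Of 303 genes with 6 or more stretches and no hydrophobic start, 236 were lower (77.9%) and 5 higher (1.65%), with a median of -1.19. With 2 to 5 stretches 312 of 693 were lower (45.0%) and 103 higher, but among the 173 of these with a coding length over 2400 bases 28 were lower and 51 higher, with a median of 0.38. With 1 stretch 258 of 1151 were lower (22.4%) and 284 higher. Where the only stretches lay in the last 50 residues, as in Sec61b, 38 of 173 were lower (22.0%) and 53 higher. Of 7155 genes with no stretch of either kind 990 were lower (13.8%) and 2334 higher (32.6%), with a median of 0.32. Over all lengths, the share that was lower with 6 or more stretches was thus above that with a hydrophobic start. The share with a stretch in the tail only was close to that with 1 stretch. Up to 600 coding bases, however, 14.0% of 50 genes with a tail stretch only and 34.9% of 83 with 1 stretch were lower. At 1200 to 2400 bases these shares were 34.15% and 22.17%. These counts describe the tested genes and were not tested against each other.

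**Figure D3:**
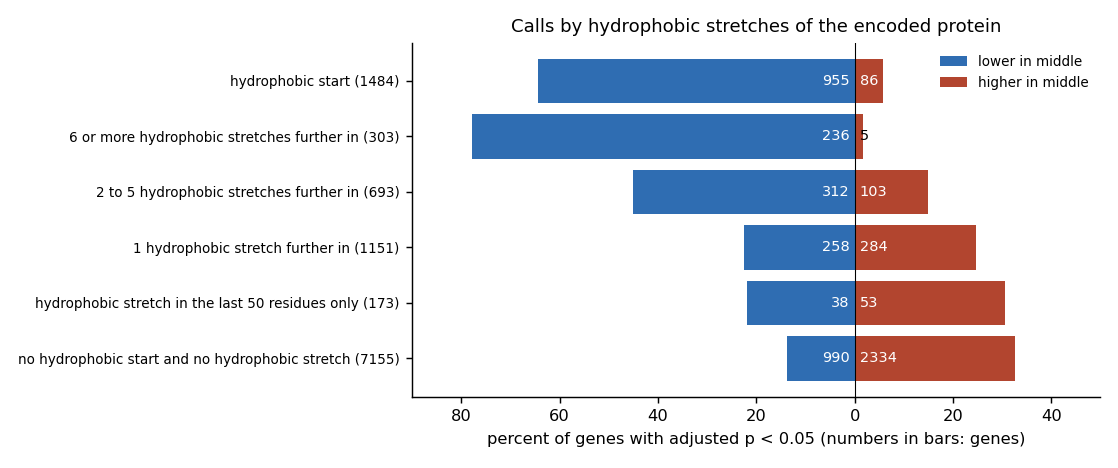
Percent of protein-coding genes lower (blue, left) and higher (red, right) in the middle zone at an adjusted p under 0.05, by the hydrophobic stretches of the encoded protein, with the number of genes tested in brackets and the numbers called in the bars. The share that was lower runs from 77.9% with 6 or more stretches to 13.8% with none.

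Transcript length moved with the difference as well. Among protein-coding genes, the median transcript was 2030 bases in those higher in the middle zone, 3360 in those lower and 3226 in those that did not pass. Without a hydrophobic start, the median difference was 1.64 in 70 genes of up to 500 bases, 0.70 in 2035 genes of 1000 to 2000 bases and -0.16 in 1164 genes over 6000 bases. With a hydrophobic start, it was -0.26 in 113 genes of 500 to 1000 bases, -0.83 in 376 genes of 1000 to 2000 bases and -1.47 in 124 genes over 6000 bases. Genes with the start lay below those without it in every length bin that held at least 20 of both. Across 10978 genes the rank correlation of the difference was -0.27 with transcript length and -0.04 with coding length. Of 231 genes with a hydrophobic start and a coding length of up to 600 bases, 35 were higher in the middle zone (15.2%, against 5.80% at all lengths) and 90 lower. Of 1124 genes of that coding length with no stretch of either kind, 503 were higher (44.8%, against 32.6% at all lengths).

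**Figure D4:**
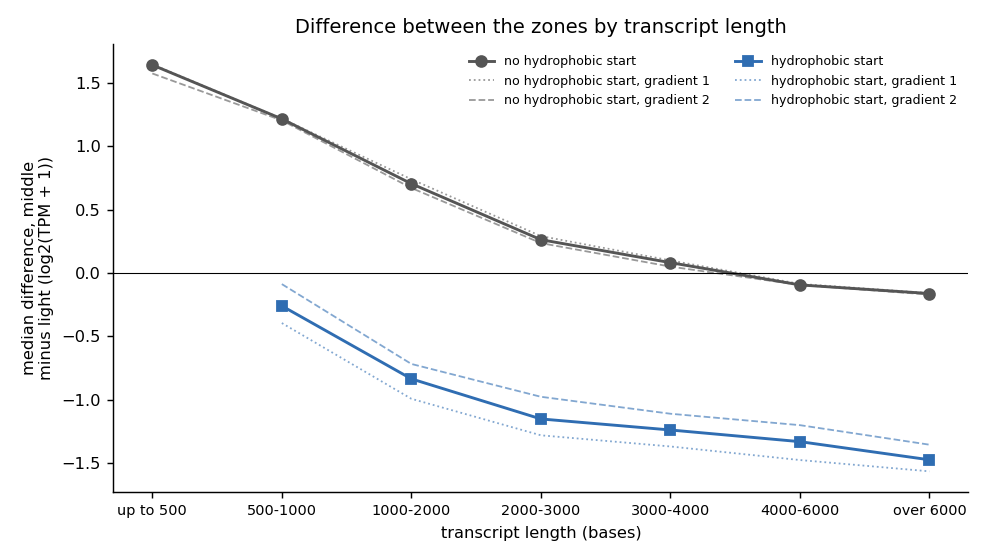
Median difference between the zones (log2(TPM + 1), middle minus light) by transcript length in bases, for genes without (gray circles) and with (blue squares) a hydrophobic start, with each gradient as a thin line. Both lines fall with length, and the blue line lies below the gray one in every bin it reaches.

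Genes of the mitochondrial respiratory chain and ATP synthase, which are encoded in the nucleus and imported as proteins, were higher in the middle zone in 76 of 83 cases, with a median of 2.09, and in 54 of them the zones did not overlap. Their summed level was 11590 to 35120 TPM in the light libraries and 58330 to 81310 in the middle ones. Atp5b, the catalytic subunit of ATP synthase, was at 323 to 1060 TPM and 2028 to 3265 TPM, without overlap, and was higher by 2.27 ± 0.18 (adjusted p = 0.00197). Ndufa4 was at 107 to 468 and 1878 to 3086 TPM, a difference of 3.40 ± 0.19 (adjusted p = 0.00197), and Uqcr11, a small subunit of complex III, differed by 2.41 ± 0.18. Cox7a2l, an assembly factor of respiratory supercomplexes, was the only lower member, at 319 to 760 and 151 to 237 TPM (-1.30, adjusted p = 0.00368, chosen after its values were seen).

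Other mitochondrial genes had the same direction with smaller medians. Of 78 genes of the mitochondrial ribosome 70 were higher and 0 lower (median 1.64), with Mrpl52 at 90.3 to 415 and 251 to 809 TPM (1.34 ± 0.15, adjusted p = 0.00301) and Mrpl12 at 0.85 ± 0.17 (adjusted p = 0.0122). The difference of Mrpl12 was 0.39 after quantile normalization (adjusted p = 0.109) and 0.42 with gradient 2 taken 1 fraction denser (adjusted p = 0.197). Of 42 genes of the tricarboxylic acid cycle and fatty acid oxidation 35 were higher and 0 lower (median 1.54). Acaa2, a thiolase of fatty acid oxidation, was at 299 to 708 TPM in the light and 1121 to 2612 in the middle libraries, a difference of 2.01 ± 0.20 (adjusted p = 0.00249). Import was mixed, with 20 of 38 higher and 4 lower. Hspe1, the mitochondrial chaperonin 10, was at 88.4 to 314 and 706 to 1206 TPM, a difference of 2.17 ± 0.23 (adjusted p = 0.00266). Its partner Hspd1 was at 346 to 582 and 363 to 662 TPM, a difference of 0.21 ± 0.24 (adjusted p = 0.501) that was below 0 after quantile normalization (-0.22). These genes are neighbours on chr1 (Hspe1 at 55088132-55091307, Hspd1 at 55077835-55088243) and overlap head to head, and the strand setting of the counting is not given. Tomm20, a receptor of the outer membrane, was the lowest of the list at -2.14 (30.1 to 50.7 and 4.12 to 14.9 TPM).

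The proteasome, the protease that degrades ubiquitin-tagged proteins, had the highest share of genes called higher among the lists, with 46 of 49 higher and 0 lower. Its summed level was 1962 to 4606 TPM in the light libraries and 8487 to 13180 in the middle ones, and the median difference was 1.86. In the catalytic core, Psma1 was at 34.7 to 68.6 and 112 to 186 TPM and was higher by 1.54 ± 0.15 (adjusted p = 0.0024), and Psmb1 at 85.2 to 181 and 257 to 469 TPM by 1.46 ± 0.15 (adjusted p = 0.00253). In the regulatory cap, the ATPase Psmc5 was higher by 1.67 ± 0.17, the ubiquitin receptor Adrm1 by 2.25 ± 0.21 and Psmd13 by 2.02 ± 0.15. Pomp, the chaperone of core assembly, was at 95.1 to 282 and 530 to 872 TPM (2.11 ± 0.17, adjusted p = 0.00197), and Shfm1, a small cap subunit, was higher by 1.39 ± 0.18, which became 0.70 with gradient 2 taken 1 fraction denser (adjusted p = 0.117). The zones did not overlap in 44 of the 49 genes.

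Cytosolic enzymes of carbohydrate and amino acid metabolism were higher in 55 of 75 cases and lower in 1, with a median of 1.24. The list also held Fabp1, the fatty acid binding protein of hepatocytes, which was the most abundant mRNA of its list. Fabp1 was at 2348 to 9192 TPM in the light libraries (median 3902) and at 26920 to 89500 in the middle ones (median 48130). All middle libraries lay above all light ones, and its share rose from fraction 10 to 13 in both gradients, from 32140 to 89500 TPM and from 26920 to 54790 TPM. The difference was 3.52 ± 0.33 (adjusted p = 0.00221). With the light zone of gradient 1 or 2 left out it was 3.54 or 3.51 (adjusted p = 0.0587 and 0.0535). Ass1, argininosuccinate synthase of the urea cycle, was at 1689 to 3422 and 2763 to 6799 TPM, which overlapped, and differed by 0.73 ± 0.29 (adjusted p = 0.0896, and 0.0125 with the block). Ahcy, which hydrolyses S-adenosylhomocysteine, was the lower one, by 1.34 on the log2 scale (chosen after its value was seen).

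Peroxisomal genes, whose products are made on free ribosomes for the most part, were higher in 29 of 52 cases and lower in 1 (median 0.85). Cat, catalase, was at 1016 to 2018 and 2495 to 4182 TPM, without overlap, and differed by 1.16 ± 0.21 (adjusted p = 0.00901), and Phyh, phytanoyl-CoA hydroxylase, by 1.90 ± 0.25 (adjusted p = 0.00392). Of 33 genes of the chaperonin CCT and of cytosolic Hsp70 and Hsp90, 17 were higher and 2 lower, and 26 were higher with the block. Cct3, a subunit of the chaperonin that folds actin and tubulin, was at 22.6 to 60.8 and 115 to 198 TPM (1.99, chosen after its value was seen). Hspa8, the constitutive Hsp70, was one of the 2 lower genes, at 1332 to 3689 and 444 to 1089 TPM (-1.56 ± 0.36, adjusted p = 0.0179), and Hsp90ab1 differed by -0.19 ± 0.18 (adjusted p = 0.417). Aminoacyl-tRNA synthetases, which charge tRNAs in the cytosol, were higher in 20 of 23 cases and lower in 2. Aars was at 31.0 to 86.1 and 118 to 227 TPM (1.62 ± 0.16, adjusted p = 0.00247) and Kars at 41.9 to 87.1 and 96.2 to 137 TPM (0.91 ± 0.16, adjusted p = 0.00826).

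**Figure D5:**
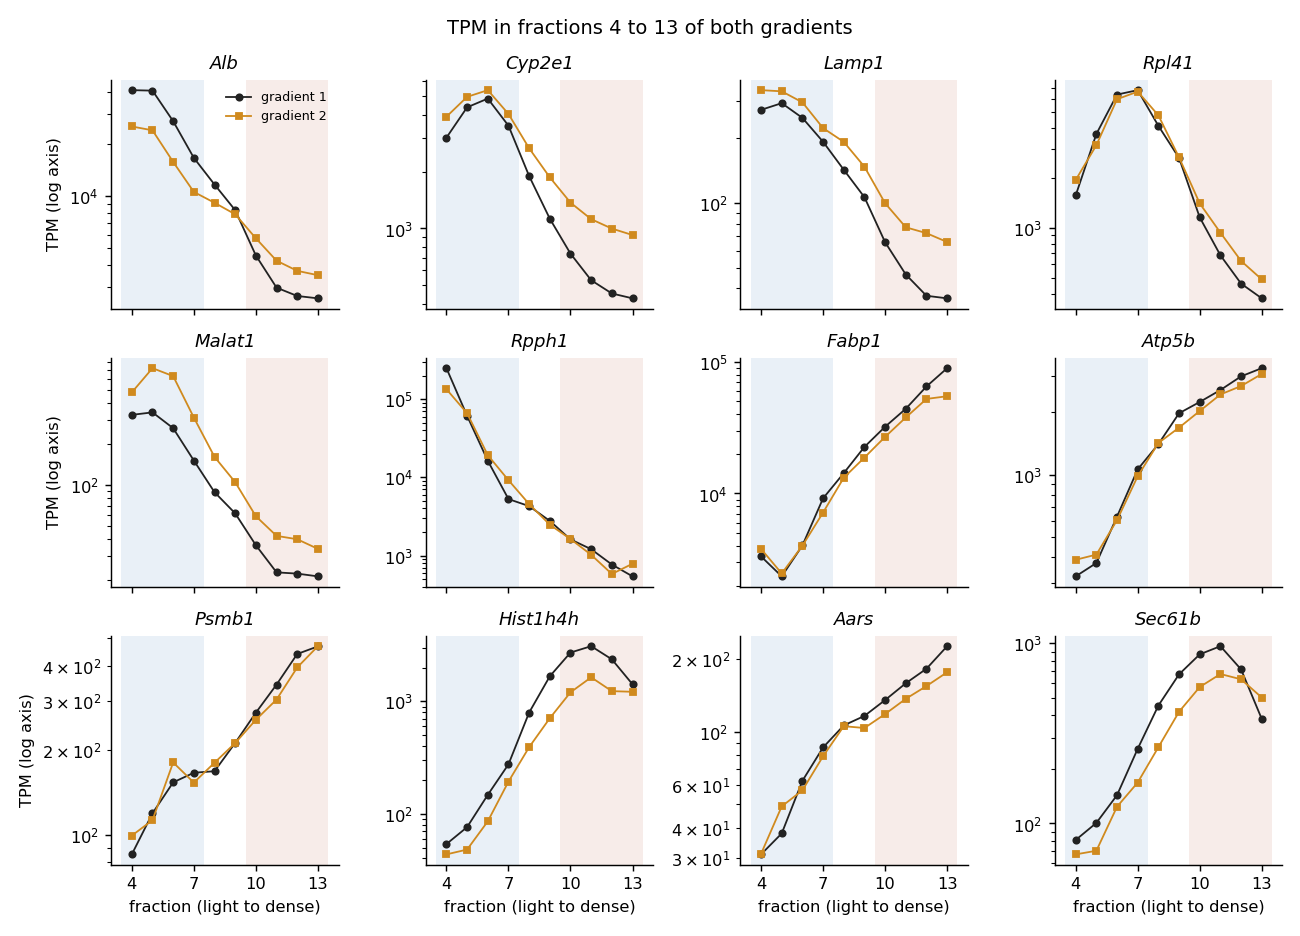
TPM on a log axis against fraction number, 4 to 13, in gradient 1 (black circles) and gradient 2 (orange squares) for 12 genes, with the light zone shaded blue and the middle zone red. Alb, Cyp2e1, Lamp1, Rpl41, Malat1 and Rpph1 are lower in the middle than in the light zone, whereas Fabp1, Atp5b, Psmb1, Hist1h4h, Aars and Sec61b are higher. From fraction 4 to 7, Rpl41 rises from 1566 to 6776 TPM in gradient 1 and from 1942 to 6639 in gradient 2. Cyp2e1 is highest in fraction 6 of both (4867 and 5394 TPM).

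Of 83 cytosolic ribosomal proteins 75 were lower in the middle zone and 4 were higher, with a median of -1.75. They are short (median transcript 869 bases) and none of 82 with a coding start had a hydrophobic one. Their summed level was 63410 to 197700 TPM in the light libraries and 30840 to 48830 in the middle ones. Rpl41, a peptide of the large subunit, was at 1566 to 6776 and 374 to 1402 TPM, without overlap, a difference of -2.51 ± 0.23 (adjusted p = 0.00212). The 4 higher members, chosen after their values were seen, were Rps27l (1.20) and Rpl7l1 (0.81), which are relatives of ribosomal proteins, Rps4l (0 to 3.33 and 3.66 to 18.2 TPM), and Rpl30 (1.27). Many ribosomal protein genes have processed copies in the genome, between which reads can be split.

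Most mRNAs of ribosomal proteins are known to begin with a pyrimidine tract by which their translation is regulated. The annotated start sites of 6 genes are shown for it, 10 bases before and 20 from the start (RefSeq, build GRCm38.p6), with a tract of C followed by at least 5 C or T at the start in capitals.
Rps6 (chr4:86857348-86857377, - strand): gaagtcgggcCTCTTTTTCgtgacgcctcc
Rps18 (chr17:33955646-33955675, - strand): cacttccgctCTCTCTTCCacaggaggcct
Rps27 (chr3:90213629-90213658, - strand): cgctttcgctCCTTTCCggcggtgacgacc
Snhg8 (chr3:123508317-123508346, - strand): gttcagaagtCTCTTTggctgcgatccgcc
Rplp0 (chr5:115559457-115559486, + strand): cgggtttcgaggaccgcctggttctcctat
Fabp1 (chr6:71199869-71199898, + strand): gtgacctggcaggcagagctgttgtggtca

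These 6 were chosen after their values were seen. Rps6, Rps18 and Rps27 differed by -1.75, -2.45 and -2.22, and Snhg8, a host gene of a small nucleolar RNA, by -3.35. Rplp0, at 1429 to 2500 TPM in the light and 174 to 314 in the middle libraries, holds no such tract at its annotated start. The transcribed strand was searched at the first base of each listed start only. The tract was found at 1.70% of 32851 start sites, in 190 of 9108 tested genes with a promoter sequence and in 12 of 61 ribosomal proteins. All 12 of these were lower, but so were 43 of the 49 others, and the medians were -1.72 and -1.86. A tract that begins off the annotated first base was missed, so the 49 may include mRNAs with it. These medians therefore cannot show whether the tract goes with the difference. Among the 178 remaining genes with the tract 59 were lower (33.1%) and 30 higher (16.9%), against 25.9% and 25.4% of 8918 genes without it.

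Of 62 translation factors 23 were higher (37.1%, against 24.9% of all genes), 16 were lower (25.8%, against 26.8%) and 23 did not pass. Their summed level was nevertheless lower in the middle zone, at 17230 to 46660 TPM in the light and 10410 to 12310 in the middle libraries. The 16 lower genes included the elongation factors Eef1a1, Eef1b2, Eef1d, Eef1g and Eef2, the initiation factors Eif3e, Eif3f, Eif3h, Eif4a2 and Eif4b, the poly(A) binding protein Pabpc1, and Tpt1. Eef1a1, which delivers tRNAs to the ribosome, was at 7050 to 19580 TPM in the light and 1467 to 2550 in the middle libraries, with no overlap and a difference of -2.77 ± 0.31 (adjusted p = 0.0028). Tpt1 was at 3436 to 12000 and 755 to 1408 TPM, a difference of -2.88 ± 0.26 (adjusted p = 0.00208), and Pabpc1 was also lower by 2.88 on the log2 scale. The 23 higher genes included all 5 subunits of the exchange factor eIF2B, from 0.79 in Eif2b3 to 1.54 in Eif2b4, and Eif3b, Eif3c, Eif3g and Eif3i of the same initiation complex as the lower Eif3e, Eif3f and Eif3h. Eif4a1, the helicase of cap-dependent initiation, was higher by 1.09, and its paralog Eif4a2 had a difference of -1.26. These members were chosen after their values were seen, other than Eef1a1 and Tpt1.

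Histones had the highest median of all lists, 2.42, with 65 of 73 genes higher and 0 lower. The histone stem-loop, the hairpin near the end of histone mRNAs that replaces a poly(A) tail, is shown for Hist1h4h (chr13:23531050-23531519, + strand).
Hist1h4h stem-loop: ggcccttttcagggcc

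Hist1h4h was at 43.5 to 275 TPM in the light libraries (median 80.8) and at 1204 to 3098 in the middle ones (median 1528). The zones did not overlap, and the difference was 4.20 ± 0.34 (adjusted p = 0.00197). In gradient 1 it peaked at fraction 11 with 3098 TPM and in gradient 2 at the same fraction with 1637 TPM. The stem-loop was found in 43 of the 73 histone transcripts and in 0.402% of 11694 transcripts searched. With it 38 were higher (median 2.67), and without it 27 of 30 were (median 1.90). Histone genes of a family are near-identical, so reads can be split between them, and sums over each family are given as well. The 13 H4 genes, which include Hist1h4d (3.38 ± 0.29) and Hist1h4i (3.56 ± 0.36), summed to 220 to 1460 TPM in the light and 3872 to 9778 in the middle libraries. H2B genes summed to 188 to 485 and 966 to 2567 TPM, H2A genes to 77.4 to 314 and 579 to 1695 TPM, and H3 genes to 43.6 to 177 and 228 to 914 TPM. The sums of these families did not overlap between the zones. Those of H1 genes did, at 70.8 to 314 and 293 to 1801 TPM. Variant histones, which are made outside of replication and have poly(A) tails, were higher in 7 of 9 cases with a median of 1.06, and their sum was 482 to 716 and 960 to 1828 TPM.

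The lists of nuclear regulators differed in direction. Of 62 nuclear receptors and hepatocyte transcription factors 10 were higher (16.1%, against 24.9% of all genes) and 11 lower (17.7%, against 26.8%). The median was 0.04, and with the block 25 were higher and 22 lower. Hnf4a, a main regulator of hepatocyte identity, was at 324 to 854 and 460 to 649 TPM (-0.07 ± 0.18, adjusted p = 0.767), and Cebpa at 434 to 901 and 752 to 1473 TPM (0.72 ± 0.31, adjusted p = 0.11, and 0.00335 with the block). Zinc finger proteins, a family of DNA and RNA binding proteins, were lower in 94 of 352 cases and higher in 8, with a median of -0.37. Their share that was lower was 26.7%, against 26.8% of all genes, and their share that was higher was 2.27%, against 24.9%. With the block 179 were lower and 47 higher. The RNA-decay factors Zfp36l1 and Zfp36 differed by -0.63 ± 0.28 (adjusted p = 0.117, and 0.00301 with the block) and -0.86 ± 0.49 (adjusted p = 0.198, and 0.000544). Of 44 hnRNP and SR proteins, which bind and splice pre-mRNA, 18 were higher (40.9%, against 24.9% of all genes) and 5 lower (11.4%, against 26.8%). Hnrnpab was at 85.4 to 156 and 284 to 382 TPM (1.62 ± 0.15, adjusted p = 0.00216) and Hnrnpf at 120 to 184 and 211 to 373 TPM (1.05 ± 0.17, adjusted p = 0.00704).

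Among noncoding RNAs, calls were mostly lower in the middle zone. Among long noncoding RNAs of the list 24 of 29 were lower and 1, Mir22hg, was higher (0.62), and among all tested lincRNA genes 84 of 132 were lower and 4 higher. Malat1, a nuclear RNA of speckles, was at 151 to 724 TPM in the light and 21.2 to 58.8 in the middle libraries, without overlap, a difference of -3.44 ± 0.41 (adjusted p = 0.00318). Snhg6, a host of small nucleolar RNAs, was at 107 to 227 and 10.1 to 20.7 TPM (-3.14 ± 0.16, adjusted p = 0.00197). Nuclei had been spun out before the gradient was loaded.

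Other short structured RNAs had the lowest median of the lists, -2.98. A spliceosomal RNA is shown as the measured RNA itself (GENCODE, build GRCm38, DNA letters), with the site ATTTTTG, of the kind that binds Sm proteins, in capitals.
Rnu12 (chr15:83149644-83149794, + strand): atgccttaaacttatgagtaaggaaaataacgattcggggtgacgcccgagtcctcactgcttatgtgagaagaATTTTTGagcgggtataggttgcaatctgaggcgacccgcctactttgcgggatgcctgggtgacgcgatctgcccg

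Snora68, a small nucleolar RNA, was at 29.2 to 2552 TPM in the light libraries (median 156) and at 0 to 41.7 in the middle ones (median 8.68, adjusted p = 0.0146). Rnu12, the U12 RNA of the minor spliceosome, was at 27.1 to 1574 and 0 to 38.1 TPM (adjusted p = 0.00339). Both had overlapping zones and were listed at 0 in at least 1 middle library, so no fold is given for them. Rpph1 was at 5276 to 249300 and 542 to 1626 TPM, without overlap (-5.20 ± 0.25, adjusted p = 0.00197), and Rprl3, a copy of it, at 68.8 to 4178 and 6.04 to 26.9 TPM (-5.55 ± 0.18). Rmrp and Terc, the RNAs of RNase MRP and telomerase, differed by -3.87 and -4.24. In all, 11 of 14 such RNAs were lower, and Rnu7, the RNA that guides histone mRNA processing, was higher, at 0 to 37.2 and 23.1 to 75.4 TPM (adjusted p = 0.00197, chosen with Rmrp and Terc after their values were seen). The list also caught Rn45s, the long precursor of ribosomal RNA, which did not pass (0.68 ± 0.41, adjusted p = 0.219).

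Of 70 small nucleolar and Cajal body RNAs 41 were lower (58.6%, against 26.8% of all genes) and 0 higher. The median was -1.72, with -1.25 in gradient 1 and -2.19 in gradient 2. In 5 only did all middle libraries lie below all light ones, against 16.4% of all genes. Scarna10 differed by -0.68 ± 0.20 (adjusted p = 0.0395) and Scarna2 by -0.51 ± 0.30 (adjusted p = 0.21, and 0.0364 with the block). Of 150 microRNA precursors 56 were lower (37.3%, against 26.8% of all genes) and 7 higher (4.67%, against 24.9%). Their median was -0.97, and the zones of 2 lower ones did not overlap. Mir568, which lies in an intron of Zbtb20, was at 51.2 to 1050 and 62.7 to 237 TPM (-1.80 ± 0.17, adjusted p = 0.00228), while Zbtb20 itself was higher by 1.10. Reads of a host gene can count for RNAs that lie within it, so the TPM of these classes is less certain than that of most mRNAs.

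The other largest differences by the naming rule were in genes that share sequence with another. Rsc1a1 was at 80.7 to 337 TPM in the light libraries and was listed at 0 in 7 of 8 middle ones (0.166 in the eighth). It lies within Ddi2 on the same strand (chr4:141683851-141685599), so reads may be assigned to either. Mir6516, within Snhg20, was at 124 to 5830 and 0 to 46.8 TPM. Sap18b, a single-exon copy of Sap18, was at 0 to 98.0 and 337 to 485 TPM (adjusted p = 0.00197). Chd4, a chromatin remodeler that overlaps Mir7045, was at 0 to 30.8 and 30.7 to 108 TPM (adjusted p = 0.00399), Hist1h2bl at 0 to 5.33 and 30.4 to 77.9 TPM, and the pseudogene Apoo-ps at 0 to 15.8 and 17.3 to 57.6 TPM. Each of these 4 was listed at 0 in at least 1 light library, where a 0 can be a failed estimate, so no fold is given for them.

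Fractions 8 and 9 lie between the zones and fractions 16 to 19 below them. Of the 81 genes named by rule, 64 had a median in fractions 8 and 9 between their zone medians, 12 had one above both and 5 one below both. In these fractions the median was 8740 TPM for Alb, 1553 for Atp5b and 752 for Hist1h4h, each between its 2 zone medians. Apoc1 was at 24070 TPM and Shfm1 at 730, above both of their zone medians (7520 and 17100, 160 and 411). In fractions 16 to 19 the gradients parted for Cyp2e1, at 381 to 495 TPM in gradient 1 and 1134 to 1758 in gradient 2, against 427 to 736 and 923 to 1370 in their middle zones. Over both gradients Atp5b was at 4079 TPM and Acaa2 at 4241, above their middle medians of 2619 and 1686. Hist1h4h was at 603 TPM, Sec61b at 211 and Uqcr11 at 704, below their middle medians of 1528, 653 and 2604. These are values side by side, and only the middle and light zones were compared.

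Some calls of named genes ended under an alternative. Besides Alb and Fabp1, leaving out the light zone of gradient 1 or of gradient 2 ended the call of Cat (1.07 and 1.24, adjusted p = 0.112 and 0.0778), Hspa8 (-1.35 and -1.78, 0.0949 and 0.0534), Ces1c (-1.47 and -1.33, 0.0953 and 0.118), Col18a1 (-0.68 and -0.85, 0.0949 and 0.0588), Scarna10 (-0.69 and -0.68, 0.141 and 0.15), Fcgr2b (-0.57 and -0.78, 0.235 and 0.134), Rgs5 (-1.07 and -1.02, 0.0505 and 0.0556) and Dcn (-0.98 and -0.55, 0.0971 and 0.29). The call of Kars ended without the light zone of gradient 1 (0.87, adjusted p = 0.056), and those of Slc38a4 (-1.25, 0.0799) and Mrpl12 (0.73, 0.088) without that of gradient 2. That of Ptprc ended without either middle zone (-0.84 and -0.93, adjusted p = 0.0953 and 0.0582). The dense zone in the fit also ended the calls of Ces1c, Hspa8, Scarna10 and Dcn (adjusted p = 0.112, 0.0567, 0.0921 and 0.141). With gradient 2 taken 1 fraction lighter, Scarna10 was at -0.27 (adjusted p = 0.464), Col18a1 at -0.59 (0.14), Dcn at -0.77 (0.11) and Fcgr2b at -0.77 (0.0634). With fractions 5 to 7 and 10 to 12, Dcn was at -0.48 (adjusted p = 0.139), and after quantile normalization Ptprc was at -0.49 (0.0764). Directions held in these genes, and with 1 mean left out the remaining mean is assumed to vary like the other zone.

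Markers of other cell types of liver were checked in the same libraries. Hepatocyte markers, which check the tissue label, were abundant, with a summed level of 23430 to 50340 TPM in the light and 13250 to 23460 in the middle libraries, and of 10 markers 2 were lower and 1 higher (4 and 4 with the block). All 12 Kupffer cell markers had negative differences, and 7 were lower, with a summed level of 224 to 309 and 104 to 151 TPM. Cd5l, a secreted protein of macrophages, differed by -2.36 ± 0.17 (adjusted p = 0.00197) and C1qc by -0.17 ± 0.19 (adjusted p = 0.481). Of 9 sinusoidal endothelial markers 7 were lower (60.2 to 122 and 39.2 to 82.3 TPM in sum), Fcgr2b among them (-0.67 ± 0.18, adjusted p = 0.0313), while Clec4g was at -0.05 ± 0.37 (adjusted p = 0.911). Of 8 stellate cell markers 6 were lower (71.8 to 161 and 47.4 to 62.0 TPM), with Rgs5 at -1.04 ± 0.16 (adjusted p = 0.00589) and Dcn at -0.76 ± 0.24 (adjusted p = 0.0474).

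Most of these markers encode membrane or secreted proteins, and 8 of 12 Kupffer, 8 of 9 endothelial and 4 of 8 stellate cell markers have a hydrophobic start. Cholangiocyte markers were at 2.31 to 6.71 TPM in sum, with 0 of 2 passing, Sox9 at -0.29 ± 0.20 (adjusted p = 0.273) and Spp1 at -0.31 ± 0.22 (adjusted p = 0.287). Of 5 erythroid markers 0 passed (2 higher and 1 lower with the block), with Hba-a1 at -0.57 ± 0.24 (adjusted p = 0.0999, and 0.00393 with the block) and Hbb-b1 at 0.05 ± 0.17 (adjusted p = 0.81). Ptprc, the 1 lymphocyte marker measured, was at 1.10 to 2.62 and 0.274 to 0.896 TPM (-0.88 ± 0.21, adjusted p = 0.0205). Only 2 of 6 listed cholangiocyte, 5 of 8 erythroid and 1 of 8 lymphocyte markers were tested. The filter on mean TPM leaves out any gene at 0 in all 16 libraries. Both zones of a gradient come from 1 homogenate, and so from the same cells. The part of other cell types in the differences between zones was not tested.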

How the data were processed

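Values are TPM per gene symbol in 16 libraries of 2 gradients, as deposited. The authors made stranded libraries depleted of ribosomal RNA, called bases with bcl2fastq 2.16.0.10 and estimated TPM with Kallisto against RefSeq transcripts of mm10, keeping genes that exceeded 1 TPM somewhere in the gradient. The Kallisto version and its strand setting are not given in the sources used here. TPM holds no depth, so a count model was not used, and the precision is known from the 2 gradients only. The series names 2 mice.

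Zone means of log2(TPM + 1) were compared with limma 3.58.1 (R 4.3.3, eBayes with trend, 2 residual degrees of freedom, two-sided, Benjamini-Hochberg adjustment over 12002 genes), which was tested on simulated data. This scale understates the change of low genes. Zones of a gradient come from 1 homogenate, so the gradient pairs them. Deviations of the gradients from the zone mean correlated between the zones across genes (r = 0.660), and a fit with the gradient as a block was made beside the main one. Lists are described by counts and medians only.

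The comparison, the gene lists and the features were chosen with earlier results of these data known. Genes named by rule are the 5 called genes with the largest positive and the 5 with the largest negative difference that share a sign in both gradients and average 10 TPM or more, the same at 100 TPM or more, the 2 most abundant members of each list, and 8 genes whose profiles the study shows. Some genes that this rule names are not reported here. Transcripts, biotypes and coordinates came from GENCODE M21 (GRCm38, the assembly of mm10), which matched 11694 tested genes, and start sites from RefSeq. Alternatives were another pseudocount, other filters, scalings, zone borders and fraction shifts, the dense zone in the fit, leaving out each zone mean, and, chosen after seeing the data, leaving out fraction 4 of gradient 1. Python 3.11.15, pandas 2.3.3, NumPy 2.4.6, SciPy 1.17.1, Biopython 1.88 and Matplotlib 3.10.9 were used. The other fractions were used only for the alternatives and for levels given beside the zones.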

Additional observations from a re-analysis of the deposited data

Results flagged for a closer look

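Among 226 sets of 8 libraries, each holding a named gene or the summed TPM of a list in 1 zone, 6 had a single library far from the others. For independent libraries chance gives about 1 in 20, which is a larger share. The fractions of a gradient are ordered and not independent, so this rate is a rough guide only. All 6 were single genes. In the middle zone these were Rsc1a1 in fraction 10 of gradient 1 (0.166 TPM, all others at 0), Rprl3 in fraction 10 of gradient 2 (26.9 TPM, others 6.04 to 12.1), Mir6516 in fraction 11 of gradient 2 (0 TPM, others 12.2 to 46.8) and Sox9 in fraction 12 of gradient 1 (1.19 TPM, others 1.65 to 2.07). In the light zone they were Hnrnpf in fraction 7 of gradient 1 (184 TPM, others 120 to 144) and Psmc5 in fraction 5 of gradient 1 (33.4 TPM, others 53.5 to 74.98).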

How the results depend on the processing

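The count of genes that differ, 6201, was 4413 to 6779 under the alternatives that kept all zone means, other than the replicate block (9076, with 4547 higher). Leaving out 1 zone mean gave 3467 to 5674 genes, with 1580 to 2982 higher and 1796 to 2692 lower. With the filter at 10 TPM, 2580 of 7376 genes were higher and 1833 lower, fewer genes being tested. Rescaling without the 50 most abundant genes moved the median of all genes by -0.21 (2420 higher, 3740 lower). Of the alternatives for named genes, 1419 kept direction and side of the threshold, 58 lost the call, 26 gained it and 21 turned direction, the last all in genes that did not pass. These were Hspd1 (-0.22 after quantile normalization, -0.00265 after rescaling), Hbb-b1 (-0.33, -0.16, -0.13 with gradient 2 taken 1 fraction denser, -0.016 without fraction 4 of gradient 1), Sox9 and Spp1 (0.0686 and 0.0800 after quantile normalization), Ost4 and Hnf4a (0.16 and 0.14 with gradient 2 taken 1 fraction lighter), and Rn45s and Clec4g (-0.43 and 0.089 with fractions 5 to 7 and 10 to 12). Leaving out a mean or a gradient gave -0.84 to 0.015 for Slc38a3, -0.0111 to 0.43 for Hspd1, -0.18 to 0.042 for Hnf4a, -0.36 to 0.025 for C1qc, -0.45 to 0.34 for Clec4g and -0.057 to 0.16 for Hbb-b1. The erythroid median, 0.21, was -0.13 with gradient 2 taken denser and -0.057 to 0.27 with a mean left out. The block changed no other call of a named gene than those given beside the genes. The causes were not tested.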
